A study of Mus musculus with 6 samples.

Results

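Rgs1, Rgs2, Rgs3, Rgs10, Rgs16, Rgs18 and Rgs19 encode regulators of G-protein signalling, and their transcripts were measured in tumour CD8 T cells with and without Eomes. They are 7 of the 18193 genes with a probe set of their own on the array. All 17 probe sets annotated to them were taken, and 15, for 6 genes, were bright enough to test (a probe set is a group of short probes that together measure 1 transcript region). The donors were male C57BL/6 mice with MCA-205 tumours (a fibrosarcoma line that is implanted), whose GFP reports expression of the T-box transcription factor Eomes. Every mouse, whichever fraction its cells gave, had been given aOX40, an antibody to a costimulatory receptor of the TNF receptor family (250 ug on days 12 and 16), and aCTLA-4, an antibody to an inhibitory receptor (200 ug on days 12, 14 and 16), from a tumour area of 50 to 80 mm2 onwards. Tumours were harvested on day 19. The groups were GFP-positive (Eomes+) and GFP-negative (Eomes-) CD8 T cells, with 3 arrays each, and the comparison asks how the transcripts differ with Eomes status within treated tumours. Mice without treatment were not analysed here, the ages of the mice and whether tumours were pooled are not given in the sources used here, and the labels tie no array to an animal. The p-values therefore measure the spread between these arrays.

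Heterotrimeric G proteins carry the signals of chemokine, lipid and prostaglandin receptors. A receptor loads the alpha subunit with GTP, and RGS proteins end the signal by speeding the hydrolysis of that GTP. In lymphocytes they shorten the response to chemokines and sphingosine-1-phosphate, and several RGS genes are themselves induced when the T cell receptor is engaged. Rgs1, Rgs2, Rgs3, Rgs16 and Rgs18 belong to the R4 subfamily, Rgs10 to R12 and Rgs19 to RZ. On mouse chromosome 1, Rgs2, Rgs13, Rgs1, Rgs21 and Rgs18 are consecutive protein-coding genes, and Rgs16 lies next to Rgs8.

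The sort was visible in Eomes itself, at 10.38, 9.86 and 8.38 log2 signal on the Eomes+ arrays against 6.85, 6.89 and 5.42 on the Eomes- arrays for the brighter probe set. The array medians lay between 6.35 and 6.42. The arrays differed more in other respects than the fractions did. Averaged over 17 genes of tumour cells and fibroblasts, log2 signal came to 9.09, 11.07 and 11.85 in Eomes+ replicates 1, 2 and 3, against 8.97, 10.18 and 12.02 in those of Eomes-. Over 15 macrophage and monocyte genes it came to 8.42, 10.07 and 10.95, against 8.09, 9.25 and 10.91 in Eomes-. The mean of 12 CD8 T cell genes, among them Cd8a and Cd3e, was 11.84, 11.65 and 10.57 against 12.02, 12.01 and 10.69, so that the replicate 3 arrays of both fractions held the least T cell signal and the most signal of tumour and myeloid genes. In such a bulk sample, fewer cells of a type and less RNA per cell cannot be told apart. The 3' to 5' ratio of Gapdh, a sign of RNA quality, was 1.88, 1.77 and 1.55 log2 on Eomes+ arrays against 1.54, 1.07 and 1.11 on Eomes- arrays (two-sided exact permutation p = 0.1, below which 3 arrays against 3 cannot go). That of Actb averaged 0.13 ± 0.04 log2 against 0.05 ± 0.06 (SD, n = 3 each; exact permutation p = 0.2).

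Among the members, Rgs16, Rgs2, Rgs1 and Rgs3 had lower mean signal in Eomes+ cells at their brightest probe sets, and Rgs10 had a higher mean. The Rgs19 means were close, with differences of 0.14 (SE 0.31) and 0.06 log2 (SE 0.27). Of the 15 tested probe sets 11 had a lower mean in Eomes+ (73.3%; 53.4% of all 27766 probe sets tested), with a median difference of -0.41 log2 beside -0.02 over all. Several of the 15 read the same gene on the same arrays and are not independent. By the brightest probe set of each gene, 4 of 6 had a lower mean, beside 6609 of 12571 genes. In limma, a linear model fitted to all probe sets, 0 of the 15 passed at an adjusted p under 0.05, where 0.00% of all probe sets passed. At an unadjusted p under 0.05 there were 2 of 15 (13.3%), both of Rgs16, against 3.37% of all. That count depended on single arrays. It was 6 of 15 without Eomes- replicate 3 (5.76% of all), and 1 without Eomes+ replicate 2 (2.77%), Eomes- replicate 1 (2.34%) or Eomes- replicate 2 (1.73%). With both arrays of a number left out it was 1 without number 1 (2.36%), 0 without number 2 (1.05%) and 8 without number 3 (6.50%). Between the fractions, 10 of 12 CD8 T cell genes also had a lower mean in Eomes+ (median -0.15 log2). Of the macrophage genes 13 of 15 had a higher mean (median 0.33 log2), and the Gapdh ratio was higher. Array by array the members differed. On Eomes+ replicate 3, where CD8 T cell signal was lowest (10.57), Rgs1 (11.70) and Rgs2 1419247_at (11.55) had their lowest Eomes+ values. Rgs16 1426037_a_at (10.91), Rgs16 1451452_a_at (12.23) and Rgs3 1425701_a_at (10.03) had their highest Eomes+ values there. Probe sets of the same gene disagreed, since Rgs16 1455265_a_at (9.33) and the other Rgs3 probe sets (8.76, 7.86 and 7.63) had their lowest there. Of 6 genes of CD4 and regulatory T cells 5 had a lower mean too (median -0.60 log2), and their mean signal was 8.48, 8.23 and 7.76 log2 on Eomes+ arrays against 8.97, 9.14 and 8.20 on Eomes- arrays. In that list Cd40lg, the CD40 ligand gene, had 5.06, 4.74 and 4.78 log2 signal on Eomes+ arrays, below the filter level on all of them, against 5.74, 7.56 and 6.38 on Eomes- arrays. Cd40lg was tested only because of the fraction in which it is high, so its separate groups are no support and the size is uncertain. It is counted in the 5, the median and the mean signal given for the list. Ctla4 and Il2ra, which activated CD8 T cells also express, differed by -0.85 (SE 0.42) and -0.87 log2 (SE 0.59), Foxp3 by -0.34 (SE 0.28) and Cd4 by -0.24 log2 (SE 0.28). Ikzf2, the gene of that list with a higher mean in Eomes+, differed by 0.32 log2 (SE 0.79). With the mean of the macrophage and tumour genes as a covariate, 10 of 15 probe sets had a difference below 0, and 8 had an unadjusted p under 0.05 (8.63% of all), with 0 passing adjustment. The part of T cell content, of CD4 T cells and of RNA quality in the lower means was not tested.

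Rgs16, a GTPase activator for Gi and Gq that is induced in activated T cells, showed the largest mean difference of the 6 tested genes, with a lower mean at all 3 of its probe sets. Probe set 1426037_a_at had 10.84, 10.36 and 10.91 log2 signal on Eomes+ arrays against 11.74, 11.70 and 11.16 on Eomes- arrays. Every Eomes+ array lay below every Eomes- array, at a mean of 10.70 ± 0.30 against 11.53 ± 0.32 (SD, n = 3 each). The difference was -0.83 log2 (SE 0.23, 95% interval -1.39 to -0.28), a 1.78-fold lower mean (limma unadjusted p = 0.00939, adjusted p = 1.00). With limma's array weights, which give arrays that depart from the fit less influence, it was -1.19 log2 and passed (adjusted p = 0.0457). In that fit 74 of 27766 probe sets passed, and 22.6% had an unadjusted p under 0.05, against 3.37% in the main fit. Over all alternatives the adjusted p ranged from 0.0457 to 1.00 and the difference from -1.19 to -0.46. It kept its direction in all 23 alternatives. The smallest difference was that with the covariate for other cells and a replicate block, a fit with nearly as many terms as arrays.

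The other Rgs16 probe sets had the same direction with groups that overlapped. Probe set 1451452_a_at had 11.73, 11.56 and 12.23 log2 signal on Eomes+ arrays against 12.40, 12.55 and 12.19 on Eomes- arrays. Here replicates 1 and 2 lay apart, while Eomes+ replicate 3 stood slightly above Eomes- replicate 3, and the difference was -0.54 log2 (SE 0.20, 95% interval -1.01 to -0.07; limma unadjusted p = 0.0309, adjusted p = 1.00). It was -0.31 log2 without both arrays of number 2, -0.82 without both of number 3, and -0.19 with the covariate for other cells and a replicate block. Probe set 1455265_a_at had 10.42, 9.35 and 9.33 against 10.93, 10.33 and 10.05, a difference of -0.74 log2 (SE 0.38, 95% interval -1.64 to 0.16), or -0.49 without Eomes- replicate 1. Its highest Eomes+ array, replicate 1, lay above Eomes- replicates 2 and 3. The 3 probe sets measure 1 gene on the same arrays and are not independent of each other.

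**Figure D1:**
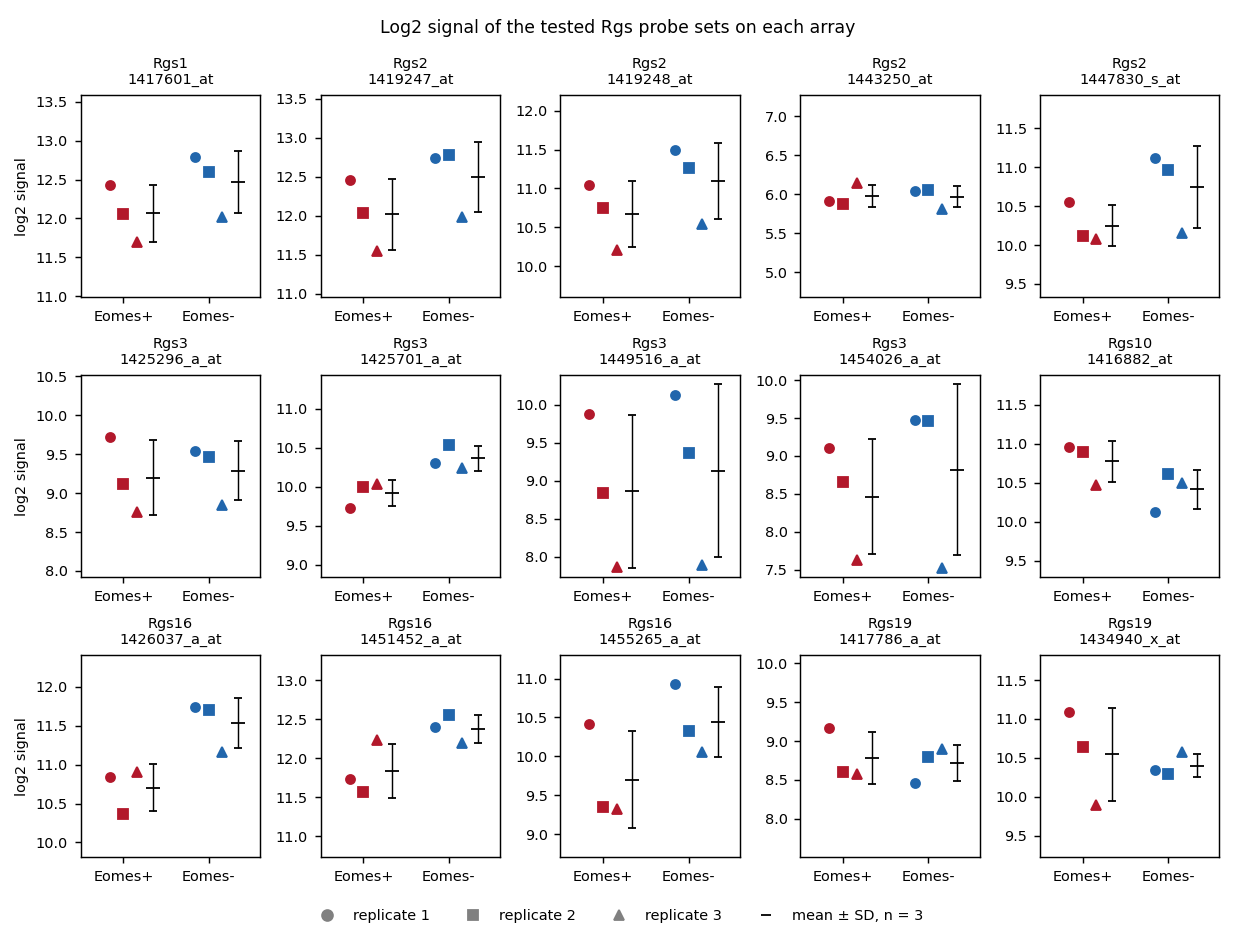
Log2 signal of the 15 tested Rgs probe sets on each array, Eomes+ on the left and Eomes- on the right of each panel, with symbols for replicate numbers and the mean ± SD of 3 arrays beside them. The groups were separate for Rgs16 1426037_a_at and Rgs3 1425701_a_at. The replicate 3 arrays were the lowest of both fractions for Rgs1, for 3 of 4 Rgs2 probe sets and for 3 of 4 Rgs3 probe sets. The same held for Rgs16 1455265_a_at.

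Rgs2, which acts chiefly on Gq and is induced early after receptor stimulation and by cyclic AMP, had a lower mean in Eomes+ at its 3 bright probe sets. Probe set 1419247_at had 12.46, 12.04 and 11.55 log2 signal on Eomes+ arrays against 12.74, 12.78 and 11.98 on Eomes- arrays. Eomes+ replicates 1 and 2 lay above Eomes- replicate 3, so the groups overlapped, and the difference was -0.48 log2 (SE 0.30, 95% interval -1.19 to 0.23; limma unadjusted p = 0.153, adjusted p = 1.00). Without Eomes+ replicate 3 it was -0.25 and without Eomes- replicate 3 it was -0.74 log2. Probe set 1419248_at had 11.05, 10.75 and 10.21 against 11.49, 11.26 and 10.55, and 1447830_s_at had 10.55, 10.11 and 10.08 against 11.12, 10.97 and 10.15. Their differences were -0.43 (SE 0.32) and -0.50 log2 (SE 0.30), again with overlapping groups. That of 1419248_at was -0.20 without Eomes+ replicate 3, -0.23 without Eomes- replicate 1 and -0.71 without Eomes- replicate 3. That of 1447830_s_at was -0.32 without Eomes- replicate 1, -0.80 without Eomes- replicate 3, -0.32 when the pair of arrays numbered 2 was left out, and -0.23 with the covariate for other cells and a replicate block. The fourth probe set, 1443250_at, stayed near the filter level of 5.70 to 5.72 on every array, between 5.81 and 6.14, and its difference was 0.02 log2 (SE 0.22, 95% interval -0.51 to 0.54).

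The start regions of Rgs16 and Rgs2 are shown because these genes gave the largest differences at several probe sets. They run 5′ to 3′ from 250 bases before to 50 bases after the gene's start, from RefSeq on GRCm38.p6. Capitals mark every match, on either strand, to 4 motifs searched: AGGTGT (core of T-box sites), TGACG (half-site of the cyclic AMP response element), CCAAT (a common promoter box) and GGAAA (core of NFAT sites). The Rgs16 region is chr1:153740103-153740402 on the plus strand and the Rgs2 region chr1:144004100-144004399 on the minus strand.
Rgs16: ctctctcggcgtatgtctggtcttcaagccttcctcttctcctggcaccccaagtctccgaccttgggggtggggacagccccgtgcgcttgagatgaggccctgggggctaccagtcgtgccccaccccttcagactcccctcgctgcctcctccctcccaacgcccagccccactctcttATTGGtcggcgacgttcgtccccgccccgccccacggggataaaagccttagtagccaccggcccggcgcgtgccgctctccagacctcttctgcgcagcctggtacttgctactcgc
Rgs2: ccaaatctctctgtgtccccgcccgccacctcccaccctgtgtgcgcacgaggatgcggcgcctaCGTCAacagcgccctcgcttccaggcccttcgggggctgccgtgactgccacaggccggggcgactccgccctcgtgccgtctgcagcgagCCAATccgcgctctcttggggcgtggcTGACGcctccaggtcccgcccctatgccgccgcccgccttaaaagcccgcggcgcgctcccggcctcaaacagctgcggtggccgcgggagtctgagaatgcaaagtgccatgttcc

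The Rgs16 region held 1 CCAAT box, on the minus strand with its first base 68 bases before the start. The Rgs2 region held 2 TGACG half-sites, beginning 185 bases (minus strand) and 67 bases (plus strand) before the start, and 1 CCAAT box 94 bases before it. No match overlapped another motif. AGGTGT and GGAAA were not among the letters of either window, though a T-box or NFAT factor can bind elsewhere or to other letters. Of 32851 such windows over all genes, 20.8% held TGACG, 37.4% CCAAT, 13.7% AGGTGT and 61.3% GGAAA. The table held 8 windows for 5 of the 7 genes and none for Rgs1 or Rgs18, and AGGTGT occurred in 1 of the 8, a window of Rgs19. These matches describe the letters and were not tested as sites.

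Rgs1, which restrains chemokine receptor signalling in lymphocytes, has a single probe set. It had 12.43, 12.06 and 11.70 log2 signal on Eomes+ arrays against 12.79, 12.60 and 12.02 on Eomes- arrays. The groups overlapped, since Eomes+ replicates 1 and 2 lay above Eomes- replicate 3. The difference was -0.41 log2 (SE 0.26, 95% interval -1.02 to 0.20; limma unadjusted p = 0.156, adjusted p = 1.00), from means of 12.06 ± 0.36 and 12.47 ± 0.40 (SD, n = 3 each). It was -0.23 without Eomes+ replicate 3, -0.25 without Eomes- replicate 1 and -0.64 log2 without Eomes- replicate 3. Within each replicate number the Eomes+ array was the lower, by -0.37, -0.54 and -0.32 log2 for numbers 1, 2 and 3. Within each fraction the arrays spread more widely than that. Both fractions were lowest on replicate 3, where the T cell genes were lowest too.

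Rgs3, an activator of GTP hydrolysis on Gi and Gq that is made in several isoforms, gave 4 probe sets that did not behave alike. Probe set 1425701_a_at had 9.73, 10.00 and 10.03 log2 signal on Eomes+ arrays against 10.31, 10.54 and 10.24 on Eomes- arrays. Its groups were separate and its spread was small, with a difference of -0.44 log2 (SE 0.19, 95% interval -0.89 to 0.01; limma unadjusted p = 0.0530, adjusted p = 1.00). It kept its direction in all 24 alternatives. By contrast, 1449516_a_at had 9.88, 8.84 and 7.86 against 10.13, 9.37 and 7.89, and 1454026_a_at had 9.11, 8.65 and 7.63 against 9.48, 9.46 and 7.52. In these probe sets replicate 3 was the lowest in both fractions, as it was for the T cell genes, and the difference between fractions was small beside that spread, at -0.27 (SE 0.70) and -0.36 log2 (SE 0.64). With the covariate for other cells these were -0.01 and -0.15 log2. Probe set 1425296_a_at had 9.72, 9.12 and 8.76 against 9.54, 9.47 and 8.85, a difference of -0.08 log2 (SE 0.33, 95% interval -0.87 to 0.71). The last 3 turned to a higher mean in some alternatives, for 1449516_a_at to 0.23 log2 without Eomes+ replicate 3. Which Rgs3 transcripts each probe set reads was not analysed here.

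Rgs10, a small member that acts on Gi and is abundant in macrophages and microglia, had 10.96, 10.89 and 10.47 log2 signal on Eomes+ arrays against 10.13, 10.61 and 10.50 on Eomes- arrays. Eomes+ replicates 1 and 2 lay above all Eomes- arrays and Eomes+ replicate 3 did not. The difference was 0.36 log2 (SE 0.22, 95% interval -0.15 to 0.88; limma unadjusted p = 0.140, adjusted p = 1.00), and by replicate number it was 0.83, 0.28 and -0.03 log2. The macrophage genes stood, number by number, at 8.42 against 8.09, 10.07 against 9.25 and 10.95 against 10.91 log2. Among the Eomes+ arrays Rgs10 was lowest on replicate 3 (10.47), where the macrophage genes were highest (10.95). Among the Eomes- arrays it was lowest on replicate 1 (10.13), where the macrophage genes were lowest (8.09). The part of macrophage content in the Rgs10 difference was not tested. With macrophage and tumour signal as a covariate the Rgs10 difference was 0.37 log2. It was 0.22 log2 without Eomes- replicate 1. Leaving out the pair of arrays numbered 1 gave 0.13, and leaving out the pair numbered 3 gave 0.56 log2.

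Rgs19, also called GAIP, acts on Gi and Gz. Probe set 1434940_x_at had 11.09, 10.64 and 9.90 log2 signal on Eomes+ arrays against 10.34, 10.29 and 10.57 on Eomes- arrays. Eomes+ replicates 1 and 2 were above all Eomes- arrays and Eomes+ replicate 3 below them, with a mean difference of 0.14 log2 (SE 0.31, 95% interval -0.60 to 0.89). Probe set 1417786_a_at had 9.17, 8.60 and 8.57 against 8.46, 8.80 and 8.90, a difference of 0.06 log2 (SE 0.27, 95% interval -0.59 to 0.71). Eomes+ replicate 1 was the highest array of both probe sets, and without it the differences were -0.13 and -0.14 log2.

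Rgs18, known from platelets and megakaryocytes, was below the filter level on all 6 arrays at both probe sets and was not tested. Probe set 1420398_at had 3.33, 2.79 and 2.91 log2 signal on Eomes+ arrays against 3.38, 4.02 and 2.92 on Eomes- arrays. Probe set 1449856_at had 3.84, 3.61 and 2.93 against 3.75, 4.16 and 3.98. The groups overlapped in each, and at this signal no difference could be measured.

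**Figure D2:**
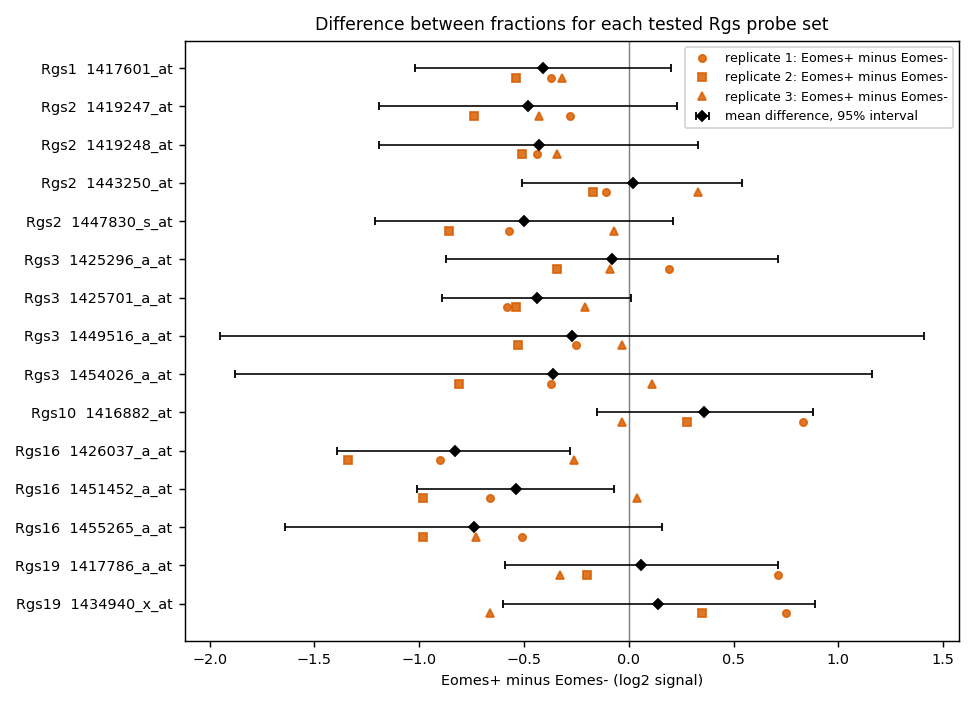
Difference in log2 signal, Eomes+ minus Eomes-, for the 15 tested Rgs probe sets, with the limma mean difference and its 95% interval (black) and the difference between arrays of the same replicate number (orange). The intervals of 2 Rgs16 probe sets lie below 0 and the other 13 include it.

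Set by replicate number, 8 of 15 probe sets were lower in Eomes+ for all 3 numbers (53.3%; 17.9% of all probe sets tested), and 0 of 15 were higher for all 3 (13.3% of all). The 8 were the probe set of Rgs1, 3 of Rgs2, 2 of Rgs3 and 2 of Rgs16, so several of them read the same gene and are not independent. Number 2 gave the most negative difference of the 3 numbers at every bright Rgs2 probe set, at Rgs1 and at each Rgs16 probe set, down to -1.34 log2 at 1426037_a_at. The labels do not say that a number marks an experiment, so these are differences between arrays that share a number. Groups did not overlap for 2 of the 15 probe sets, both lower in Eomes+ (13.3%; 5.14% of all were separate and lower, and 2.92% separate and higher).

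**Figure D3:**
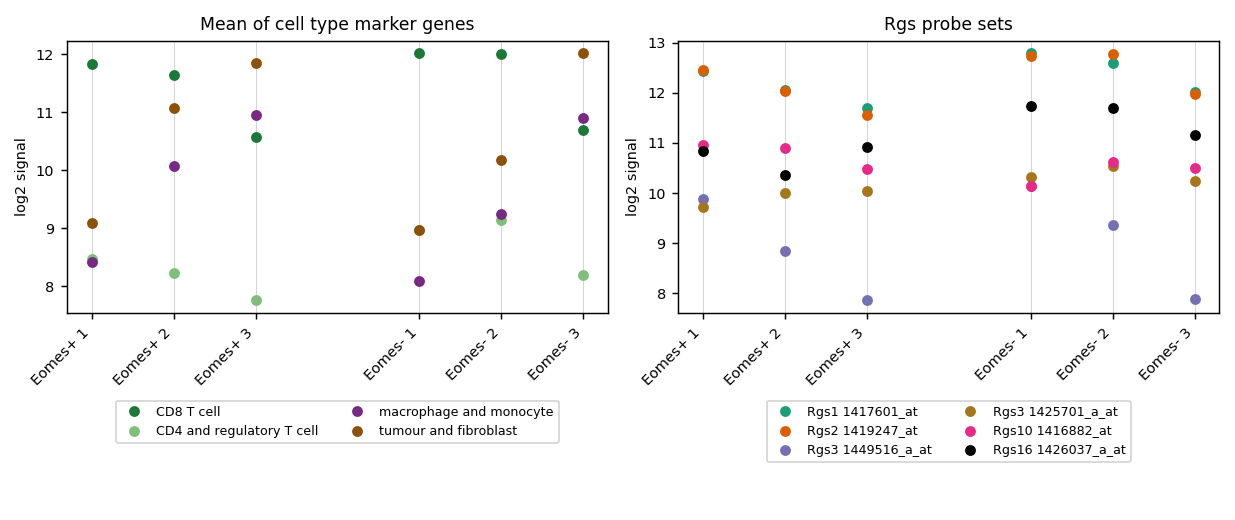
Left, mean log2 signal of marker genes of 4 cell types on each array, Eomes+ before Eomes-. Right, log2 signal of 6 Rgs probe sets on the same arrays. On the replicate 3 arrays of both fractions the CD8 T cell genes were lowest, at 10.57 and 10.69, together with Rgs1, Rgs2 and Rgs3 1449516_a_at.

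The rest of the G-protein pathway was read from the brightest probe set of each gene, in the same fit. Of 14 other RGS family genes 8 could be tested, 2 with a higher and 6 with a lower mean. Rgs8, the neighbour of Rgs16, had 8.36, 7.45 and 5.95 log2 signal on Eomes+ arrays against 9.13, 8.89 and 6.49 on Eomes- arrays (difference -0.92, SE 0.87). Rgs5, known from pericytes, differed by 0.74 log2 (SE 1.03) and was lowest on Eomes+ replicate 1, at 5.15. Among alpha subunits 5 of 10 had a higher mean (list median -0.05 log2). Gnai2, the main Gi subunit of lymphocytes and the substrate of most members, had 11.49, 11.81 and 11.22 on Eomes+ arrays against 11.89, 12.00 and 11.68 on Eomes- arrays, a difference of -0.35 log2 (SE 0.19), although its other probe set went the other way. Gnaq, the Gq subunit, differed by -0.18 (SE 0.63) and Gna13, another alpha subunit, by 0.17 log2 (SE 0.21).

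The receptors that signal through Gi spanned a wider range of differences, in both directions. Those above the filter level on all 6 arrays ran from -0.85 log2 (Cx3cr1) to 1.17 log2 (S1pr1). Of 15 receptors tested, 0 passed adjustment in limma. At an unadjusted p under 0.05 (393 of 12571 genes, 3.13%), S1pr1 and Cxcr4 were higher in Eomes+ and bright on all 6 arrays. S1pr1, the sphingosine-1-phosphate receptor for egress from tissue, had 9.74, 9.41 and 8.63 log2 signal on Eomes+ arrays against 7.97, 8.10 and 8.21 on Eomes- arrays (difference 1.17, SE 0.33). Cxcr4, the CXCL12 receptor, had 12.82, 12.33 and 11.82 against 11.65, 11.80 and 11.05 (difference 0.82, SE 0.30), and the fractions were separate for both genes (3.05% of all genes were separate and higher). S1pr5 (1.11 log2, SE 0.42) and the cannabinoid receptor gene Cnr2 (2.22, SE 0.50) lay above the filter level on all 3 Eomes+ arrays and on only 1 of 3 Eomes- arrays. They were tested because of the fraction in which they are high, so their separate groups and p-values are not set against the share of all genes, and the sizes are uncertain. Ccr8 was lower in Eomes+ at the same level (limma unadjusted p = 0.0298), by -2.46 log2 (SE 0.90) with overlapping groups. It lay above the filter level on 2 of 3 Eomes+ arrays. The chemokine receptors Cxcr6, Cxcr3 and Ccr7 differed by -0.83 (SE 0.45), 0.63 (SE 0.56) and 0.30 log2 (SE 0.61).

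No gene of the other lists had an unadjusted p under 0.05, and none passed in limma after adjustment (0 of 13 beta and gamma subunits, 0 of 6 receptor kinases and arrestins, 0 of 5 Gs-coupled receptors, 0 of 18 effectors and 0 of 11 modulators). Their medians were -0.08, -0.02, -0.34, 0.02 and 0.02 log2 in that order, beside -0.02 over all 12571 genes. Grk6, a receptor kinase, differed by 0.42 log2 (SE 0.36), Arrb2, an arrestin that uncouples receptors, by -0.13 (SE 0.26), and Ptger4, a prostaglandin E2 receptor that couples to Gs, by -0.34 log2 (SE 0.30). Axin1, a Wnt pathway scaffold with an RGS domain, was the single gene of these lists with separate groups, at 9.06, 9.06 and 8.68 on Eomes+ arrays against 9.52, 9.32 and 9.37 on Eomes- arrays (difference -0.47, SE 0.22; 4.66% of all genes were separate and lower).

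**Figure D4:**
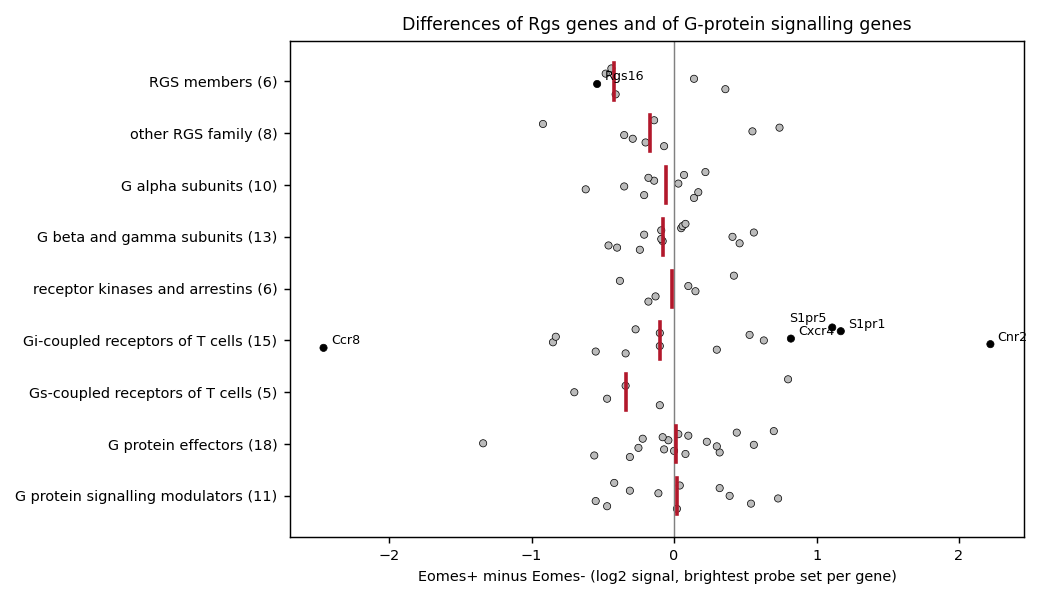
Difference in log2 signal, Eomes+ minus Eomes-, for each tested gene of 9 lists, with the number of genes in brackets, the list median as a red bar, and black points for an unadjusted p under 0.05. The RGS members have a median of -0.43 log2 and run from -0.54 to 0.36, while the Gi-coupled receptors run from -2.46 to 2.22. The ends of that receptor range, Ccr8 and Cnr2, were not above the filter level on every array, so their sizes are uncertain. Receptors above it on all 6 arrays run from -0.85 (Cx3cr1) to 1.17 (S1pr1).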

How the data were processed

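RNA of 3 Eomes+ and 3 Eomes- samples, grouped by title, was hybridised to microarrays. The authors deposited log2 values for 45101 probe sets. No header gives the scale, which was read from the values (1.68 to 14.95). The submitters' processing notes name Transcriptome Analysis Console and MAS5 without roles, and the sources used here do not give the genome build. Array medians are nearly equal, so a shift shared by most genes would not be seen. The 64 control probe sets were dropped. Of the rest, 34945 carry 1 gene symbol, updated through a RefSeq table (34741 matched), 932 carry several and 9160 none. Probe sets above their array's 40th percentile on at least 3 arrays (27766) were tested two-sided in limma 3.58.1 (R 4.3.3; lmFit, then eBayes with the trend option). P-values were adjusted by Benjamini-Hochberg over all of them, with a threshold of 0.05. The fit was tested on simulated data with independent noise, smaller than that of these arrays, and planted shifts larger than any Rgs difference. That check cannot show whether the fit finds differences of the size seen here. For lists, the brightest tested probe set stood for a gene (12571 genes). Named genes were the members, Eomes, the 3 of smallest p in each list and a fixed set. Members, lists, tests and alternatives were chosen with earlier results of these data known.

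Replicate numbers were not a block, since no label ties them to an experiment. Alternatives were a replicate block, other scalings, filters, an offset of 32, 1 probe set per gene, other variance models, array weights, a covariate for other cells and arrays left out. The number of arrays limits precision.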

Additional observations from a re-analysis of the deposited data

How the results depend on the processing

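Having 3 arrays a fraction limits all of these values, and signal near background limits some, among them those of Rgs2 1443250_at. The cause of the changes below was not tested. The number of probe sets called by limma was 0 in the main fit and 74 with array weights, 1 of them the Rgs16 probe set 1426037_a_at (-1.19 log2, adjusted p = 0.0457). It was 10 with the covariate for other cells together with a replicate block, none of them of an Rgs member. With a replicate block and both arrays of number 2 left out, an alternative chosen after seeing the data, it was 1. In the other alternatives, among them each array or number left out without a block (0 to 0), it was 0. Fits that join a replicate block with that covariate or with a number left out have nearly as many terms as arrays. Their calls and differences are uncertain. Of 350 values of Rgs probe sets under alternatives, 325 kept direction and side of the threshold, 1 newly passed and 24 turned, none of these in Rgs1, Rgs16, Rgs10, Rgs3 1425701_a_at or the bright Rgs2 probe sets.

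With arrays or numbers left out, differences ran from -0.27 to 0.26 log2 for Rgs19 1417786_a_at, -0.16 to 0.55 for Rgs19 1434940_x_at, -0.34 to 0.14 for Rgs3 1425296_a_at, -0.89 to 0.23 for 1449516_a_at, -1.01 to 0.06 for 1454026_a_at and -0.14 to 0.11 for Rgs2 1443250_at. In the pathway they ran from -0.11 to 1.89 for Rgs5, -0.25 to 1.05 for Rgs20, -0.02 to 0.34 for Gna13, -0.07 to 0.19 for Gnas, -0.74 to 0.31 for Gnaq, -0.48 to 0.03 for Arrb1, -0.34 to 0.07 for Arrb2 and -0.30 to 0.74 for Ccr7. Array weights turned Rgs19 1417786_a_at (-0.10), Rgs2 1443250_at (-0.12), Gnaq (0.10), Ccr7 (-0.15) and Pik3r6 (0.08). The covariate turned Rgs3 1425296_a_at (0.02), and with a replicate block it turned that probe set (0.04), Rgs19 1434940_x_at (-0.13) and Rgs5 (-0.06). With a replicate block and both arrays of 1 number left out, the turned values were -0.27 and -0.16 for Rgs19, -0.01 for Gnas, 0.03 for Gnaq and 0.00 for Arrb1 (number 1), 0.05 for Rgs3 1425296_a_at and -0.11 for Rgs5 (number 2), and -0.14 for Rgs2 1443250_at (number 3).

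Replicate numbers did not meet the rule for pairing. The deviations of arrays that share a number correlated at 0.665, 0.0949 and 0.691 over the tested probe sets, and at 0.977, 0.986 and 0.774 over 18 hybridisation controls, where each array matched its own number best. The replicate block called 0 probe sets and 0 of the Rgs family. At an unadjusted p under 0.05 it gave 2748 probe sets (9.90%) against 936 without it, and 8 of 15 Rgs probe sets against 2 (array weights also gave 8, with 22.6% of all), with Rgs16 1426037_a_at at -0.83 log2 (adjusted p = 0.281).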

Other observations

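For each tested member, the 3 genes whose signal followed it best over the 6 arrays were taken by Pearson correlation, among the brightest probe sets of 12571 genes. These correlations describe 6 arrays that share their tumour and T cell content, and the genes were picked for them. Rgs1 was followed by Ptpn1 (r = 0.997), a tyrosine phosphatase gene, by Cd226 (0.997), a costimulatory receptor gene, and by Thoc2. Those of Rgs2 (1419247_at) were Itpripl1 (r = 0.997), Il2ra (0.995), which encodes the alpha chain of the interleukin-2 receptor, and Stat3 (0.993), a cytokine-activated transcription factor gene. Their differences between Eomes+ and Eomes- were -0.52, -0.87 and -0.45 log2. The genes nearest Rgs3 (1425701_a_at) were Araf (r = 0.991), a RAF kinase gene, Snx22 and Poc1b, and those nearest Rgs16 (1451452_a_at) were Rfc1 (0.990), Gpr89 and Ankrd46. Rgs10 was followed by Zfp213 (r = 0.983), Nfasc and Fcf1, and Rgs19 (1434940_x_at) by Tnpo2 (0.993), Ccdc136 and Mfsd10.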
